A study of Mus musculus with 10 samples.

Results

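A set of 10 structural genes of the brush border, the layer of microvilli on the apical face of intestinal epithelial cells (IECs), was followed in colonic IECs of WT and RhoB-/- mice. They are Vil1, Pls1, Espn, Eps8, Ezr, Myo1a, Myo7b, Cdhr2, Cdhr5 and Ush1c, taken by gene symbol from the table of length-scaled transcript abundances (TPM), and all 10 were found among its 55487 genes. The WT group held 5 libraries from wild type C57BL/6J mice. The RhoB-/- group held 5 libraries labelled as C57BL/6J mice with Rhob knocked out, which the methods describe as homozygous knockout mice. The labels name no treatment for either group. The general age of the mice was 6 to 8 weeks. IECs were released from opened colons with EDTA, so each library is a bulk sample that also holds whatever other cells came off with the epithelium. The methods give an outside supplier for wild type mice and do not say whether these were littermates, so genotype cannot be told apart from the origin of the mice. In bulk RNA a lower number of cells of one type and less RNA in each such cell also cannot be told apart. Nothing states that libraries of one genotype came from separate preparations, so p-values measure the spread between these libraries.

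The deleted gene was checked first. Rhob, the small GTPase under study, had TPM of 171, 303, 365, 333 and 389 in WT replicates 1 to 5 and 0.09, 0.1, 0.35, 0.57 and 111 in RhoB-/- replicates 1 to 5. The library labelled RhoB-/- replicate 5 thus kept a Rhob level below every WT library but far above the other RhoB-/- libraries, so its transcripts do not bear out its label. What sets this library apart was not tested, and the members and gene lists are also given without it. The epithelial adhesion gene Epcam was high in every library, at 969 to 1319 TPM in WT and 1124 to 1639 TPM in RhoB-/- mice. The small intestinal enzyme gene Lct was at or near 0 in every library, and Car1, a carbonic anhydrase of colonocytes, was at 10412 TPM or more. TPM keeps no sequencing depth, which leaves the counting error of each value unknown.

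Each microvillus of the brush border is a finger of plasma membrane around a core of parallel actin filaments. Villin, plastin 1 and espin bundle the core, Eps8 sits at the tip where it caps and bundles filaments, ezrin ties filaments to the membrane, and the myosins Myo1a and Myo7b link core and membrane and carry cargo. Microvilli are held together at their tips by the cadherin-like proteins Cdhr2 and Cdhr5, whose tails are anchored by harmonin (Ush1c), Anks4b and Myo7b. The brush border is assembled as cells leave the crypt and mature, and is taken as a mark of differentiated absorptive cells.

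Together the 10 genes took 0.152% to 0.197% of all TPM in the WT group against 0.234% to 0.356% in the RhoB-/- group, and the ranges did not meet. The summed TPM was 1509 to 1950.5 in WT mice, and in RhoB-/- replicates 1 to 5 it was 2609, 2312, 2605, 2628 and 3516. Within the RhoB-/- group the library labelled replicate 5 held the highest value of 8 of the 10 genes, and replicate 2 the lowest value of 7. Within the WT group replicate 1 held the lowest value of 9 genes and replicate 2 the highest value of 6. The members thus tended to be high or low in the same libraries. Mitochondrial transcripts took 17.5% to 26.5% of TPM in WT and 10.3% to 22.4% in RhoB-/- libraries, with the highest share of each genotype in WT replicate 1 and RhoB-/- replicate 2, where the members were lowest. With these transcripts left out of the scaling the same 7 members passed the test described below, where 8.29% of all tested genes were called higher and 28.1% lower.

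**Figure D1:**
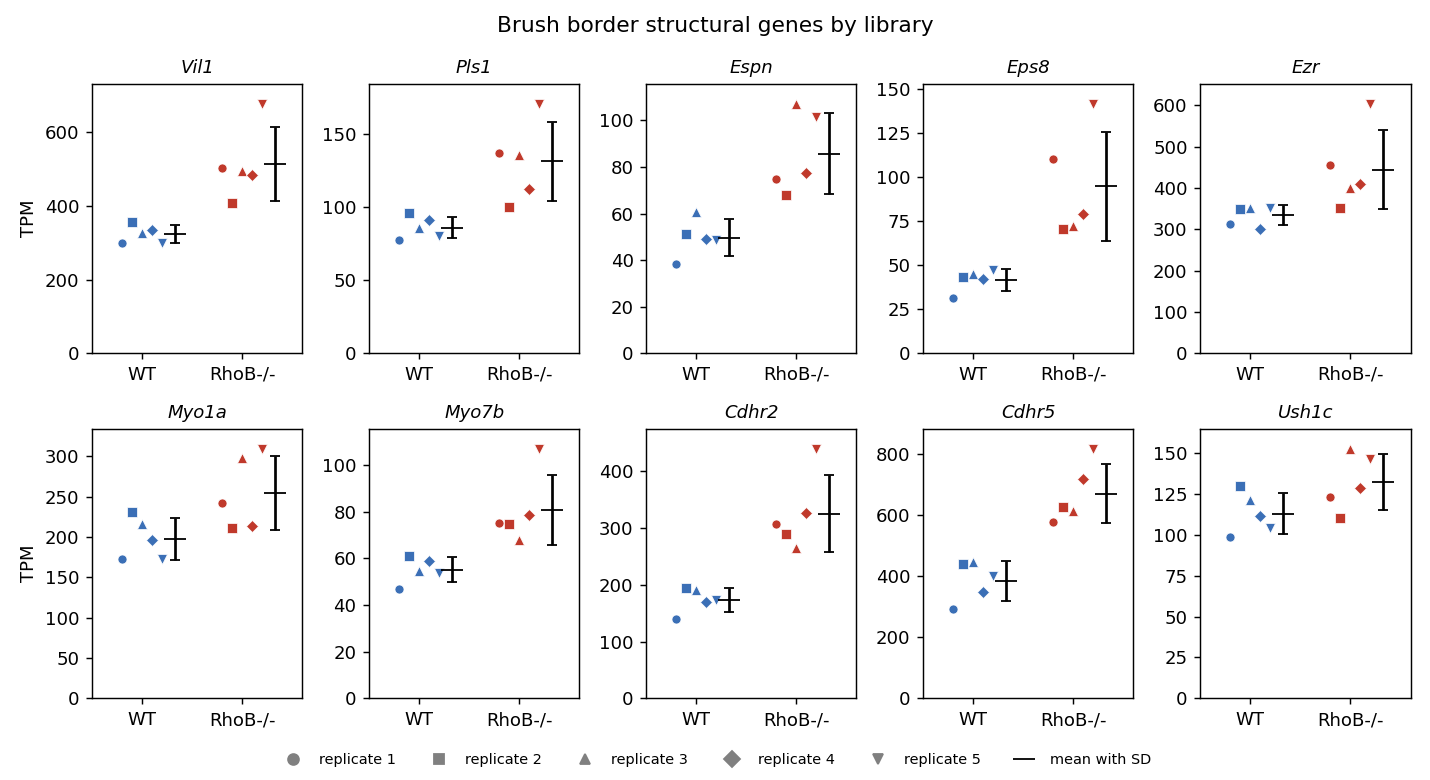
TPM of each brush border gene (y axis, starting at 0) in 5 WT (blue) and 5 RhoB-/- libraries (red), with the mean and SD in black and a symbol for each replicate number. For 7 genes every red point lies above every blue point, while for Ezr, Myo1a and Ush1c the groups overlap.

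Since TPM is scaled by transcript length, levels can be set in order across genes. In WT mice Cdhr5 was highest at 386 ± 65.6 TPM (SD, n = 5), followed by Ezr at 334 ± 24.5 and Vil1 at 324 ± 24.7, and these 3 neighbours overlapped in their ranges. Myo1a and Cdhr2 came next and also overlapped with each other, below Vil1 in every WT library. Ush1c, Pls1 and Myo7b followed, each below the gene before it in all 5 libraries, and Myo7b, Espn and Eps8 overlapped at the bottom of the order. In RhoB-/- mice the order changed in the middle and at the bottom: Vil1 stood above Ezr in all 5 libraries, Cdhr2 above Myo1a in 4 of 5, and Eps8, the lowest gene in WT mice, ranked above Espn and Myo7b in its mean with overlapping ranges.

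Among the actin bundling and capping genes, all 4 rose in RhoB-/- mice. For the test, limma with a trend was run on log2(TPM + 1) of the 12870 genes whose mean TPM reached 1, and a gene was called at a Benjamini-Hochberg adjusted p below 0.05. A log2 fold change here is the difference of mean log2(TPM + 1), RhoB-/- minus WT, which understates changes of genes with low TPM. Of all tested genes, 7.73% were called higher and 13.5% lower in RhoB-/- mice.

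Eps8 (ENSMUSG00000015766; chromosome 6, 137477245 to 137654876, minus strand of GRCm38 in the GENCODE annotation, as are all positions of genes here) changed most. Its TPM was 31.3, 43.1, 44.9, 41.9 and 47.3 in WT replicates 1 to 5 and 110.3, 70.3, 71.9, 78.9 and 142 in RhoB-/- replicates 1 to 5. The lowest RhoB-/- value was above the highest WT value, and the RhoB-/- libraries were spread more widely. The mean went from 41.7 ± 6.15 to 94.6 ± 30.8 TPM (SD, n = 5 per genotype), a log2 fold change of 1.12 with a standard error of 0.20 (limma, adjusted p = 0.00254). It was 0.96 without the library labelled RhoB-/- replicate 5 (adjusted p = 0.00333).

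Espn (ENSMUSG00000028943; chromosome 4, 152120331 to 152152371, minus strand), which encodes the bundler espin, had TPM of 38.4, 51.4, 60.7, 48.95 and 48.7 in the WT libraries and 74.8, 67.8, 107, 77.6 and 101 in the RhoB-/- libraries, in replicate order. The groups did not overlap, and the libraries nearest to each other were WT replicate 3 and RhoB-/- replicate 2. The log2 fold change was 0.77 with a standard error of 0.15 (limma, adjusted p = 0.00557).

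Vil1 (ENSMUSG00000026175; chromosome 1, 74409376 to 74435559, plus strand) encodes villin, which bundles actin at low calcium and severs it at high calcium. Its TPM was 299, 357, 327, 336 and 299.6 in WT and 505, 408, 495, 484 and 678 in RhoB-/- replicates 1 to 5. The WT values were tightly grouped, and every RhoB-/- library lay above them. The mean rose from 324 ± 24.7 to 514 ± 99.6 TPM (SD, n = 5 per genotype), with a log2 fold change of 0.65 with a standard error of 0.13 (limma, adjusted p = 0.00638).

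Pls1 (ENSMUSG00000049493; chromosome 9, 95752642 to 95845311, minus strand), the gene of plastin 1 or fimbrin, had TPM of 77.6, 95.95, 85.6, 91.3 and 80.7 in WT and 138, 100.5, 136, 113 and 171 in RhoB-/- replicates 1 to 5. The gap between the groups was narrow, from WT replicate 2 to RhoB-/- replicate 2. The log2 fold change was 0.59 with a standard error of 0.14 (limma, adjusted p = 0.0132).

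Ezrin, the linker of core and membrane, did not pass the test. Ezr (ENSMUSG00000052397; chromosome 17, 6738041 to 6782784, minus strand) had TPM of 313, 349, 353, 302 and 353 in WT and 455, 353, 399, 411 and 604 in RhoB-/- replicates 1 to 5. Of the 5 RhoB-/- libraries, 4 lay above all WT libraries, and RhoB-/- replicate 2 lay within their range, next to its upper end. The log2 fold change was 0.39 (95% interval 0.08 to 0.70, limma, adjusted p = 0.0669). The adjusted p was 0.0352 without RhoB-/- replicate 2 and 0.0487 without RhoB-/- replicate 3.

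The genes around ezrin moved in different directions. Slc9a3r1, which encodes the scaffold Ebp50 that binds active ezrin, had 186 ± 31.3 TPM in WT mice against 310.4 ± 74.9 TPM in RhoB-/- mice (SD, n = 5 per genotype), a log2 fold change of 0.72 (limma, adjusted p = 0.0124). Its relative Slc9a3r2 fell from 5.51 ± 0.273 to 3.102 ± 1.43 TPM, with a log2 fold change of -0.74 (adjusted p = 0.0274), a call lost in 5 of the 10 fits without a library. Of the kinases that phosphorylate ezrin, Stk10 had TPM of 9.39, 9.06, 11.3, 8.17 and 10.6 in WT and 20.6, 21.2, 16.9, 25.3 and 33.8 in RhoB-/- replicates 1 to 5, with no overlap between the groups and a log2 fold change of 1.17 (adjusted p = 5.66e-04). Slk, which is expressed at a higher level, had 60.04 ± 12.4 and 51.3 ± 10.3 TPM and did not pass (adjusted p = 0.355). Stk26 fell from 2.41 ± 0.652 to 0.836 ± 0.399 TPM (limma, adjusted p = 0.0103). Of the other members of the ERM family, moesin (Msn) had only 0.56 to 1.02 TPM in WT and 1.33 to 3.56 TPM in RhoB-/- mice (log2 fold change 0.81, adjusted p = 0.0149). Radixin (Rdx) had 2.14 to 7.26 and 1.21 to 2.37 TPM (log2 fold change -0.88, limma, adjusted p = 0.0259), a call lost in 5 of those 10 fits. Ezr stood far above both relatives in every library.

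Of the 2 motors, Myo7b was called and Myo1a was not. Myo7b (ENSMUSG00000024388; chromosome 18, 31959234 to 32036961, minus strand), the myosin at the tip of the microvillus, had TPM of 46.96, 60.9, 54.6, 58.9 and 53.9 in WT and 75.2, 74.7, 67.9, 78.6 and 107 in RhoB-/- replicates 1 to 5. Its groups did not overlap, and RhoB-/- replicate 5 stood well above the other RhoB-/- libraries. The log2 fold change was 0.53 with a standard error of 0.13 (limma, adjusted p = 0.0144) and 0.43 without that library (adjusted p = 0.0231). When calls were made instead at p below 0.05 before adjustment with a fold of over 1.5, which 6.37% of all tested genes met as higher and 8.33% as lower, 6 of the 10 members met the rule as higher and Myo7b was short of the fold. Pls1 met the fold only just, at 1.50017.

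Myo1a (ENSMUSG00000025401; chromosome 10, 127705170 to 127720940, plus strand), the main membrane-bound myosin of microvilli, had TPM of 173, 231, 216, 196 and 173 in WT and 242, 212, 297, 213 and 309 in RhoB-/- replicates 1 to 5. Of the 5 RhoB-/- libraries, 3 lay above all WT libraries, and RhoB-/- replicates 2 and 4 lay within the WT range. The log2 fold change was 0.35 (95% interval 0.05 to 0.66, limma, adjusted p = 0.0927). The ratio of Myo7b to Myo1a differed between genotypes by 0.18 on the log2 scale (exact permutation test, two-sided, p = 0.238, adjusted over 45 pairs 0.29), so the motors were not shown to differ from each other. Myo1d, a related myosin of microvilli, had 89.9 ± 8.45 and 105 ± 13.1 TPM in WT and RhoB-/- mice (SD, n = 5 per genotype) and did not pass (limma, adjusted p = 0.176). Myo5b, which moves apical vesicles, rose from 76.2 ± 6.68 to 118 ± 17.4 TPM (log2 fold change 0.62, limma, adjusted p = 0.00392). Myo6, which works in apical endocytosis, had 81.1 ± 14.2 and 85.02 ± 13.6 TPM (limma, adjusted p = 0.754).

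In the adhesion complex, both cadherin-like genes rose. Cdhr2 (ENSMUSG00000034918; chromosome 13, 54701461 to 54736662, plus strand) had TPM of 139.8, 193, 190.0, 169 and 174 in WT and 307, 289, 264, 325 and 439 in RhoB-/- replicates 1 to 5. The gap between the groups was wide, with the lowest RhoB-/- library well above the highest WT library. The mean rose from 173 ± 21.3 to 325 ± 67.6 TPM (SD, n = 5 per genotype), a log2 fold change of 0.89 with a standard error of 0.15 (limma, adjusted p = 0.00177). Its partner Cdhr5 (ENSMUSG00000025497; chromosome 7, 141269083 to 141276786, minus strand), with which it forms the links between microvilli, had TPM of 292, 439, 448, 347 and 402 in WT and 579.5, 628, 615, 718 and 818 in RhoB-/- replicates 1 to 5. Every RhoB-/- library again lay above every WT library. The mean rose from 386 ± 65.6 to 672 ± 96.7 TPM (log2 fold change 0.80, standard error 0.15, limma, adjusted p = 0.00316). The ratio of the 2 genes within a library differed between genotypes by 0.09 on the log2 scale (exact permutation test, two-sided, p = 0.286).

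Their scaffold did not pass the test. Ush1c (ENSMUSG00000030838; chromosome 7, 46195350 to 46238503, minus strand), which encodes harmonin, had TPM of 98.6, 129, 121, 111 and 104 in WT and 123, 110.0, 152, 129 and 146 in RhoB-/- replicates 1 to 5. The groups overlapped, with 2 of 5 RhoB-/- libraries above all WT libraries. The log2 fold change was 0.22 (95% interval -0.04 to 0.48, limma, adjusted p = 0.193). The remaining proteins of the complex, picked for their role with their values already seen, also did not pass. Anks4b, the second scaffold, had 38.8 ± 5.35 and 50.5 ± 8.48 TPM (limma, adjusted p = 0.0651). Calml4, the light chain of Myo7b, had 204 ± 24.9 and 212 ± 22.8 TPM (limma, adjusted p = 0.725), a log2 fold change of 0.06 with a 95% interval of -0.19 to 0.32.

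The upstream sequences of 3 genes of this complex and of Vil1 are shown because Cdhr2, Cdhr5 and Vil1 rose while Ush1c did not pass. Each runs from 250 to 21 bases before the RefSeq transcript start on GRCm38.p6, 5′ to 3′ on the strand of the gene. They were searched on both strands for CAAAG, a half-site of HNF4, for CATAAA, the core bound by CDX factors, and for TATAAA, the TATA box, which differs from CATAAA in its first letter. Matches are in capitals.
Cdhr2 (chr13:54701213-54701442, plus strand): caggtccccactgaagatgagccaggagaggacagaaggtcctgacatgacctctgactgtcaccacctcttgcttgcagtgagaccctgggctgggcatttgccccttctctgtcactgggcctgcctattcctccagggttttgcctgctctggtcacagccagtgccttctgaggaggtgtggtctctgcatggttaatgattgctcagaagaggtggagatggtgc
Cdhr5 (chr7:141276807-141277036, minus strand): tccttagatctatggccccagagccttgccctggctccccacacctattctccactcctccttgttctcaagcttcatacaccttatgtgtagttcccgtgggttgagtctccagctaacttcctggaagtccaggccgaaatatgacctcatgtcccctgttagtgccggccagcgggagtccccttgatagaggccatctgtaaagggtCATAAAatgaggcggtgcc
Ush1c (chr7:46238511-46238740, minus strand): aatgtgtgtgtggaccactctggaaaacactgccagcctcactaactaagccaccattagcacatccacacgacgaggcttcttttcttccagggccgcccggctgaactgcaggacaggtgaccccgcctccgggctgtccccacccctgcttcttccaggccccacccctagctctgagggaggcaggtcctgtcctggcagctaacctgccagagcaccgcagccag
Vil1 (chr1:74409134-74409363, plus strand): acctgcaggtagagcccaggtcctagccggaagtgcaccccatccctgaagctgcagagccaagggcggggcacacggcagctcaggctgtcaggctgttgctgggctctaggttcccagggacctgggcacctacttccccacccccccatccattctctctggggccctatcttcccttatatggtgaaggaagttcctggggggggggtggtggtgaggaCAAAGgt
Cdhr5 held CATAAA 39 bases before its start and Vil1 held CAAAG 27 bases before its start, both on the strand of the gene. No letters searched were found in the windows of Cdhr2 and Ush1c. Windows were searched for 8 members, and not for Myo7b and Eps8. These 8 had 10 windows, 3 of them of Espn, and CAAAG was found in 3 of the 10 and CATAAA in 2. The window of the Espn start nearest to the end of the gene held both. Of all 32851 windows of this length, 46.1% held CAAAG, 10.2% CATAAA and 11.8% TATAAA.

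Over the 10 genes, 7 were higher in RhoB-/- mice at an adjusted p below 0.05 and none was lower (limma), where 7.73% of all tested genes were called higher. At an unadjusted p below 0.05, 9 were higher and 0 lower, where 11.9% of all tested genes were higher and 24.9% lower. The groups did not overlap for the same 7 genes, against 5.97% of all tested genes with every RhoB-/- library above every WT library and 8.55% with every one below. All 10 log2 fold changes were positive, from 0.22 for Ush1c to 1.12 for Eps8, with a median of 0.62, while the median of all tested genes was -0.13. Each of the 7 calls was kept in all 10 fits that left out a library, with adjusted p of at most 0.0348. Without the library labelled RhoB-/- replicate 5, which kept some Rhob, the same 7 were called at log2 fold changes of 0.43 to 0.96, where 5.6% of all tested genes were called higher and 8.68% lower, and Ezr, Myo1a and Ush1c were at 0.27, 0.28 and 0.18 (adjusted p = 0.124, 0.194 and 0.331, limma).

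**Figure D2:**
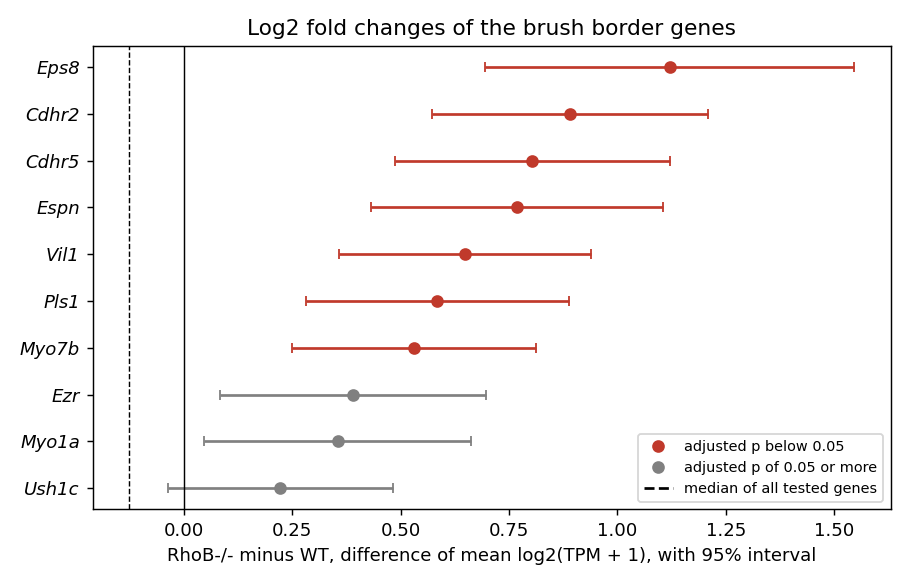
Log2 fold change of each brush border gene, RhoB-/- minus WT on the log2(TPM + 1) scale (x axis), with its 95% interval from limma. Eps8 stands highest at 1.12, all 10 lie above the dashed line at -0.13, the median of all tested genes, and the intervals of the 3 grey genes reach lowest.

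Whether the genes changed by unequal amounts was asked with the ratios between members within each library, which do not move with the scaling of the library. The difference in mean log2 ratio between genotypes was tested for the 45 pairs with an exact permutation test over the 252 labellings, two-sided, whose smallest p is 0.00794, and adjusted over the 45 pairs. At an adjusted p below 0.05, 17 pairs differed, and 24 at an unadjusted p below 0.05. Eps8 gained on Ush1c by 0.90 (adjusted p = 0.0298, exact test). Cdhr2 and Cdhr5 gained on their scaffold Ush1c by 0.67 and 0.58 (adjusted p = 0.0298 for each, exact test). Cdhr2 gained on Ezr by 0.50 and Vil1 gained on Ezr by 0.26 (adjusted p = 0.0298 and 0.042, exact test). Eps8 rose more than its partner in each of its 6 called pairs, and Ush1c changed less in each of its 6. For Vil1 and Pls1, the pair of core bundlers, the difference was 0.06 (exact p = 0.206), and for Ezr and Myo1a it was 0.04 (exact p = 0.786). These calls depended on the WT libraries. Without WT replicate 1, 2 or 3 no pair had an adjusted p below 0.05, with 19, 20 and 23 pairs at an unadjusted p below 0.05 and a smallest adjusted p of 0.0595, 0.0549 and 0.0510 (exact test). The other fits that left out a library called 8 pairs (without WT replicate 4) to 26 pairs (without RhoB-/- replicate 3), and all 17 differences kept their sign in every one of the 10 fits.

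**Figure D3:**
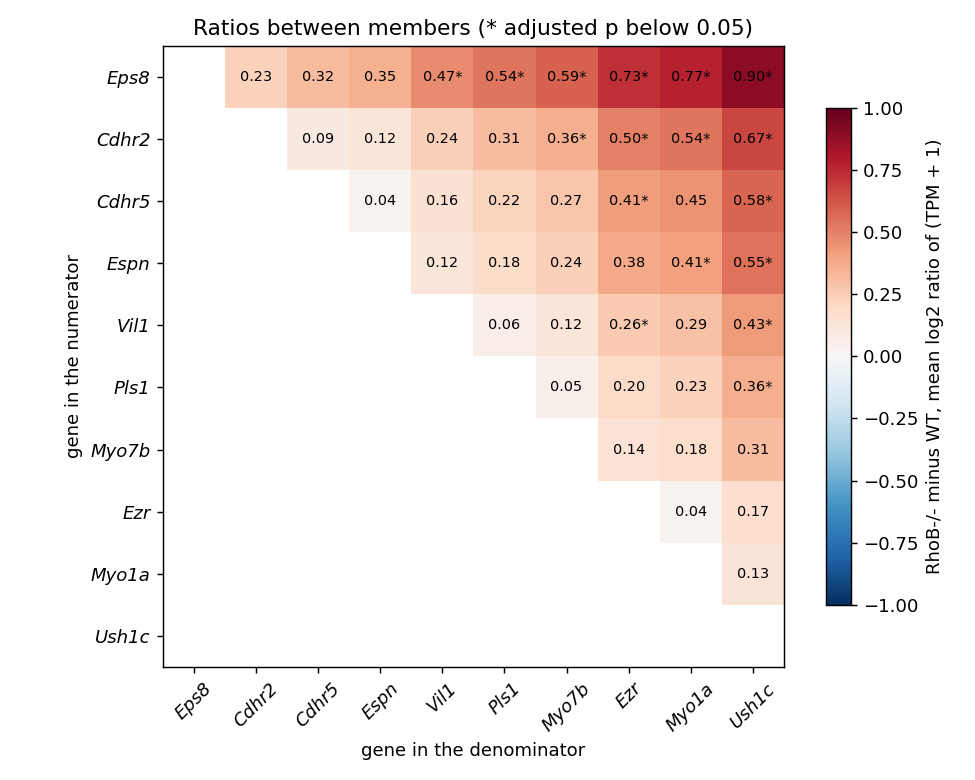
Difference between genotypes in the mean log2 ratio of 2 members, RhoB-/- minus WT, for the gene in the row over the gene in the column. The genes are in order of their log2 fold change and a star marks an adjusted p below 0.05, which is met by 17 of 45 pairs, most of them in the rows of Eps8 and Cdhr2 and the columns of Ush1c, Ezr and Myo1a.

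The size of the changes depended on how the libraries were scaled. After centring every library on the median of its deviations, the median log2 fold change of all genes moved by 0.11 upwards and all 10 members were called higher, at log2 fold changes of 0.34 to 1.24, with 15.6% of all tested genes called higher. Quantile normalization called the same 7 and Myo1a, at 0.25 (limma, adjusted p = 0.0467), with 12.3% of all tested genes called higher. With each library centred on the mean of the pan-epithelial markers, which moved the median of all genes by -0.32, 4 members stayed called: Eps8 at 0.80, Cdhr2 at 0.57, Cdhr5 at 0.48 and Espn at 0.44 (adjusted p = 0.00266, 0.007, 0.0112 and 0.00935, limma), where 4.13% of all tested genes were called higher and 48.5% lower. Under this scaling Vil1 was at 0.33 (adjusted p = 0.0524), Pls1 at 0.26 and Myo7b at 0.21 (adjusted p = 0.108 and 0.241), and Ush1c turned to -0.10 (limma, adjusted p = 0.488). Centring moves every gene of a library alike, so the order of the genes by log2 fold change stayed as it was. The share of higher among all calls was 36.5% as deposited, 44.6% with quantile normalization, 55.0% with median centring, 22.8% without mitochondrial genes and 7.84% with centring on pan-epithelial markers, so the balance of higher and lower genes rests on the scaling. Of the brush border partners, paralogs, enzymes and regulators described next, Myo1e, Actb, Myh14, Avil, Lcp1, Scin, Msn, Mep1a, Isx and Cdx2 lost their call with centring on pan-epithelial markers.

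**Figure D4:**
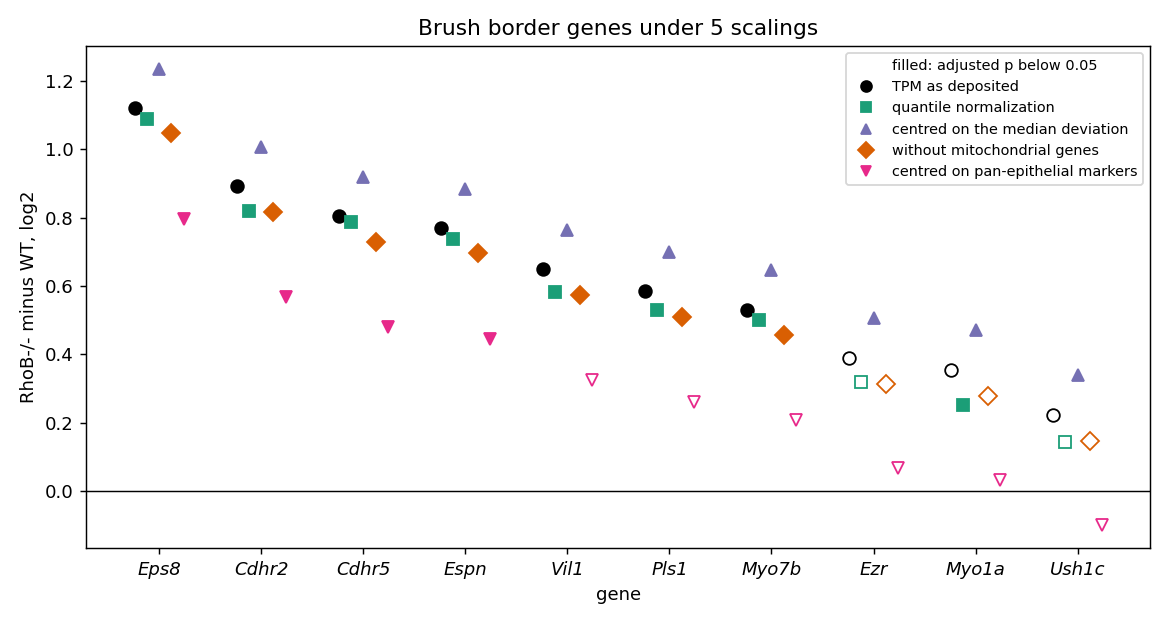
Log2 fold change of the 10 brush border genes (y axis) under 5 scalings of the libraries, with filled symbols at an adjusted p below 0.05. Eps8, Cdhr2, Cdhr5 and Espn are filled under all 5, and Ush1c lies below 0 with centring on pan-epithelial markers.

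Of 29 other brush border genes that bind, power or regulate the members, all were tested, 10 were higher, 3 were lower and 16 did not pass in RhoB-/- mice (limma), with a median log2 fold change of 0.20. Among all tested genes 7.73% were called higher and 13.5% lower. The largest changes were in membrane adhesion proteins of microvilli. Tmigd1 had TPM of 69.01, 59.4, 119, 52.6 and 90.9 in WT and 162, 216, 201, 261 and 312 in RhoB-/- replicates 1 to 5, a log2 fold change of 1.58 (limma, adjusted p = 7.80e-04). Ceacam20, found on microvilli of colonocytes and enterocytes, rose from 42.9 ± 9.53 to 116 ± 30.98 TPM (SD, n = 5 per genotype, log2 fold change 1.41, limma, adjusted p = 5.43e-04). Ceacam1 rose from 1484 ± 236 to 3489.9 ± 871 TPM (log2 fold change 1.22, limma, adjusted p = 6.62e-04). Neither group overlapped the other for these 3 genes. Misp, which bundles actin at the rootlets of microvilli, rose from 222 ± 36.3 to 378 ± 42.4 TPM (log2 fold change 0.77, limma, adjusted p = 0.00208). The regulators of the actin core Baiap2l1, Baiap2l2 and Cobl had log2 fold changes of 0.38, -0.31 and 0.16 and did not pass.

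Actin itself and the terminal web below the microvilli, named for their role with their values already seen, gave mixed calls. Actb had 1513 ± 249.8 TPM in WT mice against 2291 ± 476 TPM in RhoB-/- mice (SD, n = 5 per genotype), a log2 fold change of 0.59 (limma, adjusted p = 0.0283), a call lost in 5 of the 10 fits that left out a library. Actg1 had 2493 ± 487 and 2639.6 ± 384 TPM, with a log2 fold change of 0.09 (adjusted p = 0.709). Of the non-muscle myosin II heavy chains, Myh14 rose from 333 ± 52.6 to 501 ± 69.7 TPM (adjusted p = 0.0106), while Myh9 had 126 ± 20.7 and 123 ± 14.1 TPM (limma, adjusted p = 0.914). Whether Actb and Actg1, or Myh14 and Myh9, differed from each other was not tested.

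Relatives of the members were compared to see how far whole families moved. Of 20 paralogs and counterparts, 16 passed the TPM filter, and of these 7 were higher, 2 lower and 7 did not pass (median log2 fold change 0.22). Among all tested genes the shares were 7.73% higher and 13.5% lower. In the Eps8 family, Eps8l2 rose from 122 ± 12.5 to 217 ± 39.5 TPM and Eps8l3 from 178 ± 34.2 to 304 ± 90.8 TPM (SD, n = 5 per genotype, log2 fold changes 0.81 and 0.75, adjusted p = 0.00171 and 0.0198, limma). Eps8l1 had 6.74 ± 1.87 and 8.65 ± 3.03 TPM (adjusted p = 0.348). Both Eps8l2 and Eps8l3 stood above Eps8 itself in mean TPM in both genotypes. In the villin and gelsolin family, Scin rose from 74.6 ± 6.08 to 104 ± 13.5 TPM (log2 fold change 0.47, adjusted p = 0.0124) and Capg from 44.8 ± 10.1 to 82.1 ± 25.3 TPM (log2 fold change 0.83, adjusted p = 0.0202, lost without WT replicate 2 or 4). Gsn had 92.00 ± 20.5 and 71.95 ± 11.9 TPM and Vill 3.64 ± 1.17 and 2.78 ± 0.669 TPM (adjusted p = 0.135 and 0.299, limma). Avil, which is expressed by tuft cells, had 2.01 ± 1.19 and 4.01 ± 0.446 TPM (log2 fold change 0.81, adjusted p = 0.0218, lost without WT replicate 2 or 5).

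Of the plastins, Lcp1, the form of white blood cells, had 4.06 ± 0.9 TPM in WT mice against 6.42 ± 1.32 TPM in RhoB-/- mice (SD, n = 5 per genotype, limma, adjusted p = 0.0347), a call lost in 6 of the 10 fits that left out a library, and Pls3 had 8.47 ± 1.73 and 9.79 ± 3.59 TPM (adjusted p = 0.611). The myosins Myo1c and Myo7a had log2 fold changes of 0.09 and -0.03 and did not pass. The stereocilia of the inner ear use a similar complex, and its genes Cdh23, Pcdh15 and Ush1g, with the espin relative Espnl, reached at most 0.41, 0.02, 0.07 and 0.03 TPM in any library. Whrn, which encodes the scaffold whirlin, fell from 8.602 ± 1.05 to 5.69 ± 1.11 TPM (log2 fold change -0.53, limma, adjusted p = 0.0172), a call lost without WT replicate 4.

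Of 19 genes listed as apical enzymes, most of them hydrolases of the microvillus membrane, 15 were tested, and 5 of them were higher and 0 lower at an adjusted p below 0.05 (limma), with 6 higher and 1 lower at an unadjusted p below 0.05 and a median log2 fold change of 0.07. Among all tested genes 7.73% were higher and 13.5% lower after adjustment, and 11.9% and 24.9% before it. The list also holds Maoa, an enzyme of mitochondria that is 1 of those 6, and the cadherin gene Cdhr1, which is no enzyme, and neither was called. Mep1b, a subunit of the metalloprotease meprin, rose from 39.9 ± 6.55 to 87.3 ± 17.04 TPM (SD, n = 5 per genotype, log2 fold change 1.11, limma, adjusted p = 4.22e-04). Car4, a membrane-bound carbonic anhydrase, rose from 407 ± 122 to 857 ± 169 TPM (log2 fold change 1.10, adjusted p = 0.00549). Alpi, the intestinal alkaline phosphatase, rose from 20.2 ± 5.33 to 38.9 ± 11.6 TPM (log2 fold change 0.91, adjusted p = 0.0109), and Enpep, an aminopeptidase, from 1.604 ± 0.858 to 5.02 ± 2.24 TPM (log2 fold change 1.21, limma, adjusted p = 0.0106). Mep1a, the other meprin subunit, had 107 ± 20.9 and 156 ± 31.4 TPM (log2 fold change 0.54, adjusted p = 0.0369), a call lost in 6 of the 10 fits that left out a library. Without the library labelled RhoB-/- replicate 5, in which Mep1a, Mep1b and Enpep stood apart, their log2 fold changes were 0.43, 0.996 and 1.02 (adjusted p = 0.0788, 6.52e-04 and 0.0241, limma).

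Of 15 transcription factors and cofactors linked to intestinal differentiation or to actin genes, 14 were tested, 2 were higher and 2 lower (limma), and the groups overlapped for all 4. Among all tested genes 7.73% were called higher and 13.5% lower. Isx rose from 52.9 ± 15.7 to 84.5 ± 8.58 TPM (SD, n = 5 per genotype, log2 fold change 0.71, adjusted p = 0.0179) and kept its call in all 10 fits that left out a library. Cdx2, a master factor of intestinal identity, had 112 ± 9.48 and 152 ± 29.6 TPM (log2 fold change 0.42, limma, adjusted p = 0.0447), a call kept in 2 of those fits. Hnf4g had 18.6 ± 3.51 and 12.8 ± 2.04 TPM (log2 fold change -0.50, adjusted p = 0.0352), kept in 3, and Gata6 had 23.3 ± 3.48 and 16.9 ± 1.27 TPM (log2 fold change -0.43, adjusted p = 0.0246), kept in 6. Hnf4a, an activator of brush border genes, had 223 ± 16.3 and 272 ± 38.4 TPM (adjusted p = 0.1), and Srf, the actin-responsive factor, had 30.7 ± 5.72 and 31.2 ± 4.31 TPM (limma, adjusted p = 0.888). Without the library labelled RhoB-/- replicate 5, 8 partners were higher and 2 lower, 6 paralogs higher and 1 lower, 4 enzymes higher and 0 lower, and 1 regulator, Isx, higher and 2 lower (limma). In that fit 5.6% of all tested genes were called higher and 8.68% lower.

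Some markers of cell maturity and of other cells moved alongside the brush border genes. The counts of these markers stand beside 7.73% of all tested genes called higher and 13.5% lower. At an unadjusted p below 0.05 these shares were 11.9% and 24.9%. Of 12 genes of mature colonocytes, 7 were higher and none was lower (limma, 8 and 0 at an unadjusted p below 0.05), with a median log2 fold change of 1.14 and a summed level of 18123 to 27353 TPM in WT and 32847 to 54333 TPM in RhoB-/- libraries. Among them Slc9a3, the apical sodium and proton exchanger, had a log2 fold change of 2.15, Lypd8 of 1.65, Aqp8 of 1.44, Emp1 of 1.36 and Krt20 of 1.17 (adjusted p from 6.51e-05 to 0.0103, limma). The other called genes, Ceacam20 and Car4, are also in the lists of partners and enzymes. The 5 colonocyte genes that did not pass were Car1, Slc26a3, Guca2b, Guca2a and Clca4a. Car1, Slc26a3, Guca2b and Guca2a had log2 fold changes of 0.39, 0.28, 0.09 and -0.03 (limma, adjusted p = 0.203, 0.324, 0.674 and 0.890). Of 10 stem and cycling cell genes, 3 were lower and none was higher (4 and 0 at an unadjusted p below 0.05), with a median of -0.53 and a summed level of 267 to 351 TPM in WT and 142 to 340.1 TPM in RhoB-/- libraries. They were Smoc2, Mki67 and Mcm2, with log2 fold changes of -1.05, -0.69 and -0.61. Of 9 tested pan-epithelial genes, 1 was higher (Cldn7, log2 fold change 0.53, limma, adjusted p = 0.0343), and their median was 0.29. The part of these shifts in the brush border result was not tested. The scaling on pan-epithelial markers given above moves every gene of a library alike, so it does not separate mature from cycling cells.

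Tuft cells, which carry a tall brush border of their own, had 4 of 7 tested markers higher and 1 lower, with Dclk1 at 0.82 to 3.200 TPM in WT and 1.94 to 3.22 TPM in RhoB-/- mice and Il25 at or near 0. Among all tested genes 7.73% were called higher and 13.5% lower, and 11.9% and 24.9% at an unadjusted p below 0.05. The summed level of the tuft cell list was 216 to 276 TPM in WT and 155 to 235 TPM in RhoB-/- libraries, most of it from Cd24a, which other epithelial cells also express. Of 10 goblet cell genes, 5 were higher and none lower (6 and 1 at an unadjusted p below 0.05), with a summed level of 14016 to 16036 TPM in WT and 20158.0 to 23932 TPM in RhoB-/- libraries, and Muc2 had 4981 ± 1239 and 4294 ± 629 TPM (limma, adjusted p = 0.474). Of 6 enteroendocrine genes, 4 were lower and none higher (5 and 0 at an unadjusted p below 0.05), with a summed level of 417 to 549.6 TPM in WT and 174 to 279 TPM in RhoB-/- libraries. Immune genes were low but higher in RhoB-/- mice, with 4 of 5 tested genes called and a summed level of 5.38 to 11.4 TPM in WT and 18.0 to 32.5 TPM in RhoB-/- libraries. Of 3 tested stromal genes 2 were higher, and the whole list summed to 8.93 to 12.2 TPM in WT and 13.4 to 55.2 TPM in RhoB-/- libraries, with Pdgfra and Myh11 at or near 0. Without the library labelled RhoB-/- replicate 5, the summed level in RhoB-/- mice reached at most 27.4 TPM for the stromal list, 29.9 TPM for the immune list and 42909 TPM for mature colonocytes, with 1, 4 and 7 genes called higher. In that fit 1 stem and cycling gene, 3 enteroendocrine genes and 0 tuft cell genes were lower, and 3 tuft cell, 4 goblet cell and 0 pan-epithelial genes were higher. Among all tested genes in that fit 5.6% were called higher and 8.68% lower. The part of these cells in the brush border result was not tested.

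A marker of position along the colon also differed. Hoxb13, which is expressed towards the distal colon and rectum, had TPM of 50.02, 135, 67.2, 79.4 and 74.99 in WT and 22.4, 35.1, 17.8, 26.5 and 13.99 in RhoB-/- replicates 1 to 5. Every RhoB-/- library lay below every WT library (log2 fold change -1.76, limma, adjusted p = 0.00113). Of the 8 genes of proximal or distal colon, 7 were found in the table and 4 were tested, and Hoxb13 was the one called. Among all tested genes 7.73% were called higher and 13.5% lower. At an unadjusted p below 0.05 (limma), 0 of the 4 were higher and 2 lower, with a median log2 fold change of -0.43. Among all tested genes 11.9% were higher and 24.9% lower by that rule. The log2 fold change of Hoxb13 was -1.60 without the library labelled RhoB-/- replicate 5 (limma, adjusted p = 0.00314). Of 8 small intestinal genes, 3 were tested and 2 were higher, Fabp2 (log2 fold change 0.60, limma, adjusted p = 0.049) and Alpi, of which Alpi alone was called without the library labelled RhoB-/- replicate 5, while Lct, Apoa4 and Apoa1 were at or near 0. The other tested gene, Fabp6, had 9.22 ± 6.05 and 13.1 ± 3.30 TPM in WT and RhoB-/- mice (SD, n = 5 per genotype, limma, adjusted p = 0.214). Fabp2 had 1089 ± 333 TPM in the RhoB-/- libraries other than replicate 5. The whole list summed to 649 to 950 TPM in WT and 759 to 1538 TPM in RhoB-/- libraries. The part of the stretch of gut sampled in the brush border result was not tested.

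**Figure D5:**
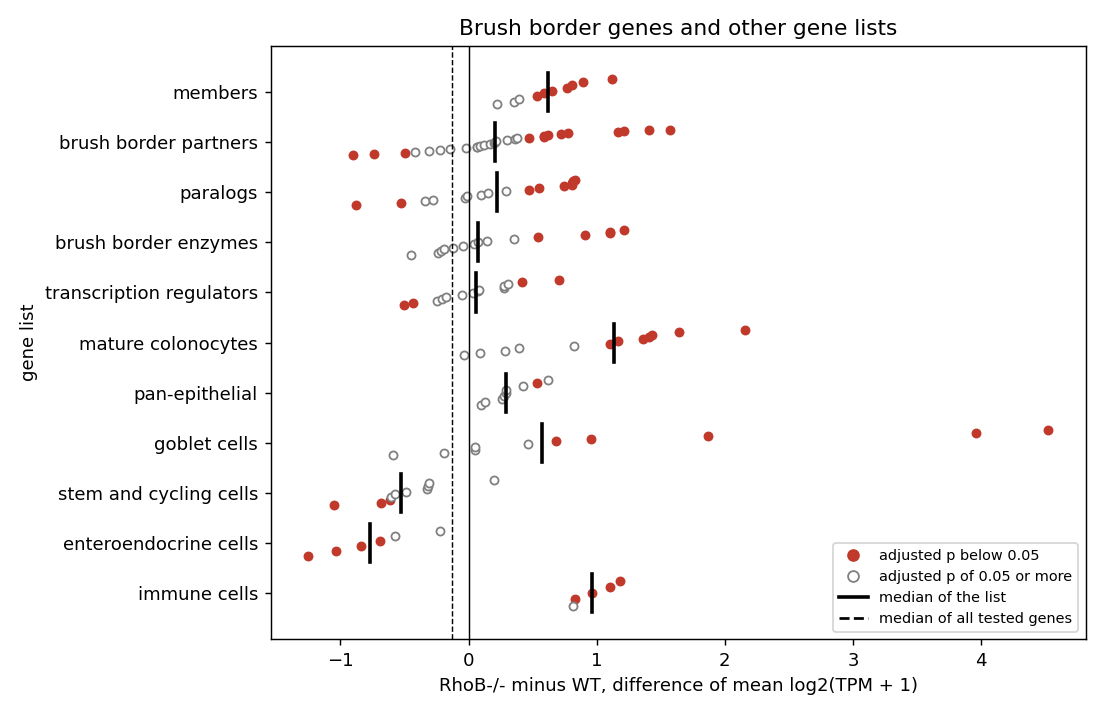
Log2 fold change of each tested gene, RhoB-/- minus WT on the log2(TPM + 1) scale (x axis), by gene list (y axis), with red points at an adjusted p below 0.05, a bar at the median of the list and a dashed line at the median of all tested genes. The bar of the brush border members stands at 0.62, below those of mature colonocytes at 1.14 and immune cells at 0.96. It stands just above that of goblet cells at 0.57. The partners are at 0.20, the pan-epithelial genes at 0.29 and the stem and cycling genes at -0.53.

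Overlap with other genes touched 3 members. Vil1 shares 49 exonic bases with Usp37, Ezr 4 with Sytl3 and Ush1c 120 with the gene model Gm9860, each on the opposite strand. Their mean TPM was 4.98, 0.472 and 5.85 in WT and 5.44, 0.926 and 6.91 in RhoB-/- mice, low beside the members. The methods name an orientation mode for the alignment and do not state whether counting used strand.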

How the data were processed

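RNA of colonic IECs was sequenced as paired ends. Per the methods and the submitters' notes, the authors used SeqPrep and Sickle for trimming, HISAT2 for alignment to GRCm38.p6, StringTie for assembly and RSEM for quantification. The deposited values are TPM, scaled by transcript length and library total and rounded to 2 decimals, with 10 columns for 10 libraries. TPM keeps no depth, so no counting error is given and no count model was used. Genes whose mean TPM reached 1 were compared with limma 3.58.1 (lmFit and eBayes with trend, R 4.3.3) on log2(TPM + 1), with genotype as the term and Benjamini-Hochberg adjustment over all 12870 tested genes. The scripts were tested on simulated data with 200 changed genes, fewer than were called here. There limma recovered 18% of log2 changes of 0.5 and 76% of changes of 1. With fewer changed genes the adjustment is stricter, so these shares can understate what is recovered in the data. A gene that did not pass may still have changed by an amount the test misses. The members and gene lists were chosen with earlier results of these data known. Values were named for every member, the paralogs, the largest changes of the other lists, 1 defining marker per cell type and mature colonocyte genes that did not pass. The alternatives changed pseudocount, filter, scaling, trend, threshold, block and library. Promoter sequences are from RefSeq on GRCm38.p6, matched by symbol. Results of some genes of the lists are not reported here.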

Additional observations from a re-analysis of the deposited data

Results flagged for a closer look

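In groups of 5 libraries, a value was singled out where its gap to the nearest other library was over 0.71 of the range of its group, Dixon's limit for 5 values. Of 120 groups examined 9 held such a value, and chance gives about 6. Of the brush border members this met Myo7b, whose value of 106.9 TPM came from the library labelled RhoB-/- replicate 5. In the same library Rhob stood apart at 110.9 TPM, as did the apical enzymes Mep1a at 212 TPM, Mep1b at 117 TPM and Enpep at 8.84 TPM. In WT libraries Gsn stood apart at 127.7 TPM in replicate 2, Eps8l1 at 10.07 TPM in replicate 4, Gata6 on the low side at 17.2 TPM in replicate 1 and Dclk1 at 3.20 TPM in replicate 1.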

How the results depend on the processing

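Each of the 7 calls among the members was kept in all fits that left out a library (7 to 8 members higher, 0 to 0 lower), while the partners ranged over 8 to 11 higher and 1 to 3 lower, the paralogs over 5 to 7 and 0 to 2, the enzymes over 4 to 6 and 0 to 1, the regulators over 1 to 2 and 0 to 2, Rhob over -7.90 to -6.23, and the pairs that differed over 0 to 26. Centring on pan-epithelial markers gave 4 members higher and Ush1c at -0.10, 7 partners lower, 3 paralogs higher, 3 enzymes lower, and 0 regulators higher against 7 lower, where 48.5% of all tested genes were called lower. Median centring gave 16 partners higher, with 15.6% of all tested genes called higher. Leaving mitochondrial genes out gave 5 partners and 1 enzyme lower, with 28.1% of all tested genes called lower. With no filter 3 paralogs were higher and 1 lower, and 1 regulator each way. With a mean TPM of at least 5, 0 partners were lower, 4 paralogs higher and 1 lower. At p below 0.05 before adjustment with a fold of 1.5, 1 paralog was lower, 1 regulator higher and 0 lower. Among all tested genes 6.37% met that rule as higher and 8.33% as lower. Without the trend 1 regulator was higher. Replicate numbers did not pair the libraries (correlations of deviations 0.02, 0.02, 0.07, -0.09 and -0.00). With the replicate number as a block 7 members were still called higher, with 1 enzyme lower and 1 regulator each way. The share of all tested genes called was not worked out for the fits with another filter, without the trend or with the block. Nor was it for leaving out libraries other than RhoB-/- replicate 5. Moves of the lists in these fits thus cannot be told apart from a change in calls over all genes. Other causes of these moves were not tested. The unknown depth of TPM limits the low genes most.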
